A study of Mus musculus with 6 samples.

Results

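Retinoic acid is a signal that embryonic cells make from vitamin A, and the 9 genes described here act at successive steps of its life: 3 enzymes that make it (Aldh1a1, Aldh1a2 and Aldh1a3), 2 enzymes that break it down (Cyp26a1 and Cyp26c1), a reductase that takes its precursor away (Dhrs3), a pair of carriers that bind it inside the cell (Crabp1 and Crabp2), and a receptor gene that it also switches on (Rarb). The genes were taken by symbol from a table of RPKM values (reads scaled to the length of the gene model and to the library's mapped reads) with 23446 rows named by gene symbol, and all 9 had a row. RNA came from the aorta-gonad-mesonephros region (AGM) of C57BL/6 mouse embryos at E11.5, midgestation, the tissue around the dorsal aorta in which blood stem cells first form. The 3 genotypes were tph2+/+, tph2+/- and tph2-/-, with 2 libraries each and 6 in all. Tph2 is the tryptophan hydroxylase that begins serotonin synthesis in neurons. The sources used here do not say how the mutant allele was made, nor which libraries share a litter. The protocol speaks of 2 pairs of littermates for the genotypes, without saying whether a library is 1 embryo or a pool, and the p-values measure only the spread between these libraries.

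Retinol reaches cells bound to Rbp4 and enters some of them through Stra6. It is oxidised to retinal by retinol dehydrogenases, a step that Dhrs3 runs in reverse, and retinal is oxidised irreversibly to retinoic acid by the Aldh1a enzymes. Cyp26 enzymes hydroxylate retinoic acid and so end the signal, while receptors of the Rar and Rxr families, bound to DNA in pairs, carry it to target genes. In the midgestation trunk Aldh1a2 is the main synthetic enzyme of the mesoderm, and Rarb, Cyp26a1 and Dhrs3 are known targets of the signal.

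The receptor pairs bind direct repeats of a short half-site, and the repeats nearest to the start of Rarb and Cyp26a1 are shown because these are the members in which such a repeat was found. Promoter windows (300 bases around a gene's start, most of them before it, RefSeq sequences on GRCm38.p6) were at hand for 7 of the 9 members. Each was searched on both strands for the half-site AGGTCA and for 3 variants of it, namely AGTTCA, followed by GGGTCA, and finally GGTTCA, in any direct repeat with 5, 2 or 1 bases between the copies. Capitals mark the half-sites, and the letters are given 5′ to 3′ on the gene's own strand.
Rarb: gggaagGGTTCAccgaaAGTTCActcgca
Cyp26a1: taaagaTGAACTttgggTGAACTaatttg
The Rarb stretch lies at chr14:16575507-16575535 on the minus strand, and its repeat runs from 53 to 37 bases before the start of the RefSeq transcript whose window it lies in. That start is internal to the longer span that GENCODE gives the gene. The Cyp26a1 stretch lies at chr19:37697770-37697798 on the plus strand. Its repeat runs from 32 to 16 bases before the RefSeq start, in the opposite orientation to the gene. GENCODE places the start of Cyp26a1 slightly earlier, at the last base of the stretch shown. Both repeats have 5 bases between the copies. A repeat of that kind was present in the windows of 31 of 27025 genes, or 0.115%, against 0.311% for a spacing of 2 and 0.263% for a spacing of 1. A match is a description of these letters and not a measured binding site.

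The libraries held an estimated 38800000 to 46000000 reads each, and the replicates of a genotype correlated across genes at r = 0.993 to 0.997. Tph2 itself was listed at 0.0280 to 0.0764 RPKM over the 6 libraries with no order by genotype, so its level checks no label. Endothelial markers, which define the AGM's vessel wall, summed to 67.5 to 78.0 RPKM in every library, and none of the 5 was at 0. Xist and the Y-linked gene Ddx3y gave both tph2+/+ libraries and tph2+/- replicate 1 a female pattern, with Xist at 76.3 to 101 RPKM, and tph2+/- replicate 2 and both tph2-/- libraries a male pattern, with Ddx3y at 8.14 to 9.82 RPKM. Genotype and sex therefore cannot be told apart between tph2-/- and tph2+/+. Markers of tissues next to the AGM also differed between genotypes, and their values are given beside the results. In bulk tissue, fewer cells of a type and less RNA per cell cannot be told apart.

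The members spanned 3 orders of level. By mean RPKM over the 6 libraries, which is a level per length of gene model, Crabp1 stood highest at 154, followed by Crabp2 at 95.8, Aldh1a2 at 33.0, Dhrs3 at 11.1 and Rarb at 9.87. Aldh1a3 at 0.952, Cyp26a1 at 0.859, Aldh1a1 at 0.742 and Cyp26c1 at 0.145 lay under a mean of 1 RPKM, the minimum for testing. The neighbours Dhrs3 and Rarb overlapped in their ranges, as did the 3 genes between 0.742 and 0.952. The test was therefore run on 5 of the 9 members, among 12869 genes in all, and the other 4 are described from their reads.

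**Figure D1:**
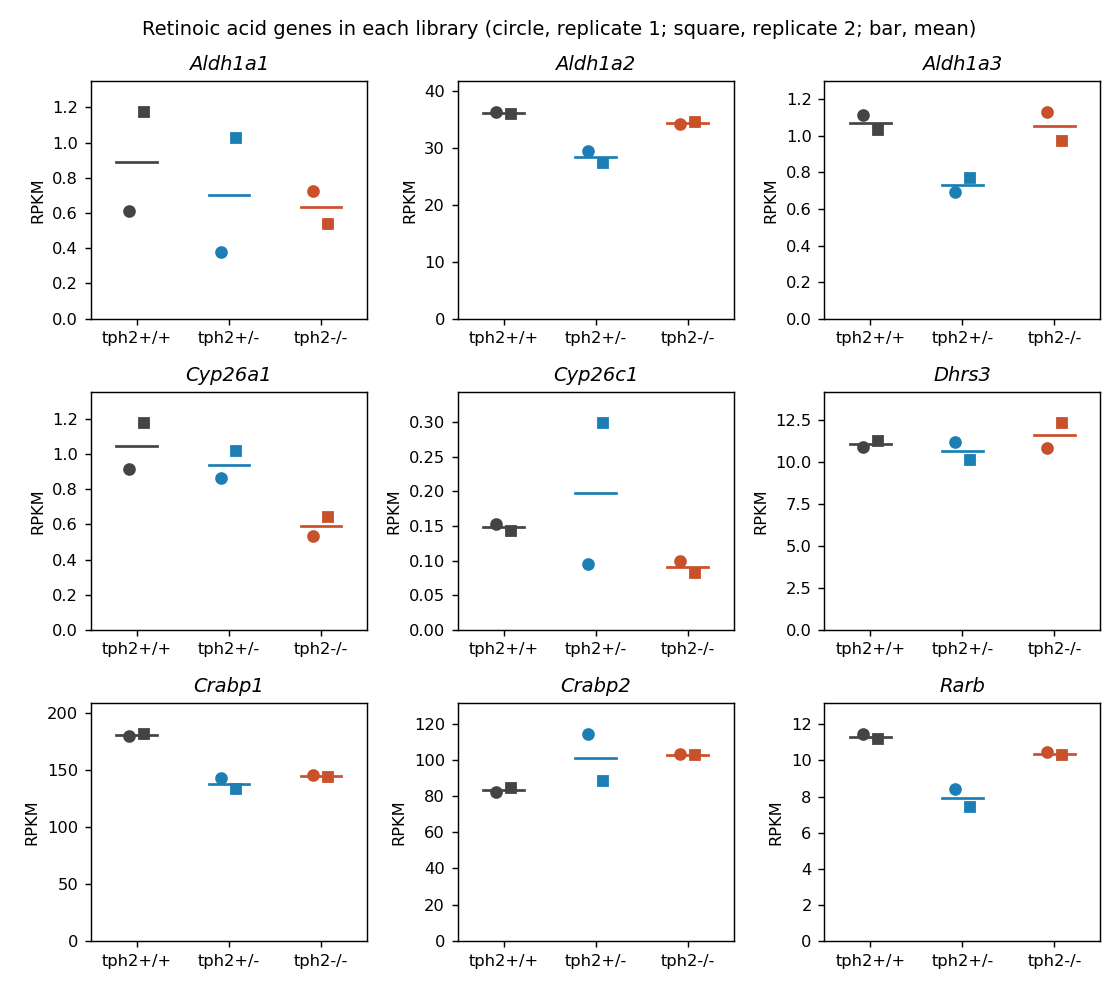
RPKM of the 9 members, 1 panel per gene with its own axis from 0, by genotype, with a circle for replicate 1, a square for replicate 2 and a bar for the mean. Both tph2+/- libraries lie under both tph2+/+ libraries for Aldh1a2, Aldh1a3, Rarb and Crabp1, and the replicates of a genotype lie far apart for Aldh1a1 and, in tph2+/-, for Cyp26c1 and Crabp2.

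Rarb, Crabp1 and Aldh1a2 were lower in tph2+/- than in tph2+/+, with RPKM ratios of 0.698, 0.766 and 0.787. Of the 5 tested members, only Crabp1 passed as lower in tph2-/- than in tph2+/+, with a ratio of 0.804, and Rarb was higher in tph2-/- than in tph2+/-, with a ratio of 1.31. Differences below are log2 fold changes on the log2(RPKM + 1) scale, with the standard error after the ± sign and limma p-values adjusted over all 12869 genes. Against tph2+/+, 3 of the 5 tested members passed an adjusted p of 0.05 in tph2+/-, all lower, where 6.08% of all tested genes passed (4.13% higher and 1.95% lower). In tph2-/- against tph2+/+, 1 of 5 passed as lower, beside 9.64% of all tested genes (5.84% higher and 3.81% lower). Between tph2-/- and tph2+/-, 1 of 5 passed as higher, beside 1.29% of all tested genes (0.746% higher and 0.544% lower). The median log2 fold change over the 5 tested members was -0.34 in tph2+/- and -0.07 in tph2-/-, against 0.02 and 0.03 over all tested genes. The comparisons with tph2+/+ share its 2 libraries, and the comparison of the mutants shares libraries with both.

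**Figure D2:**
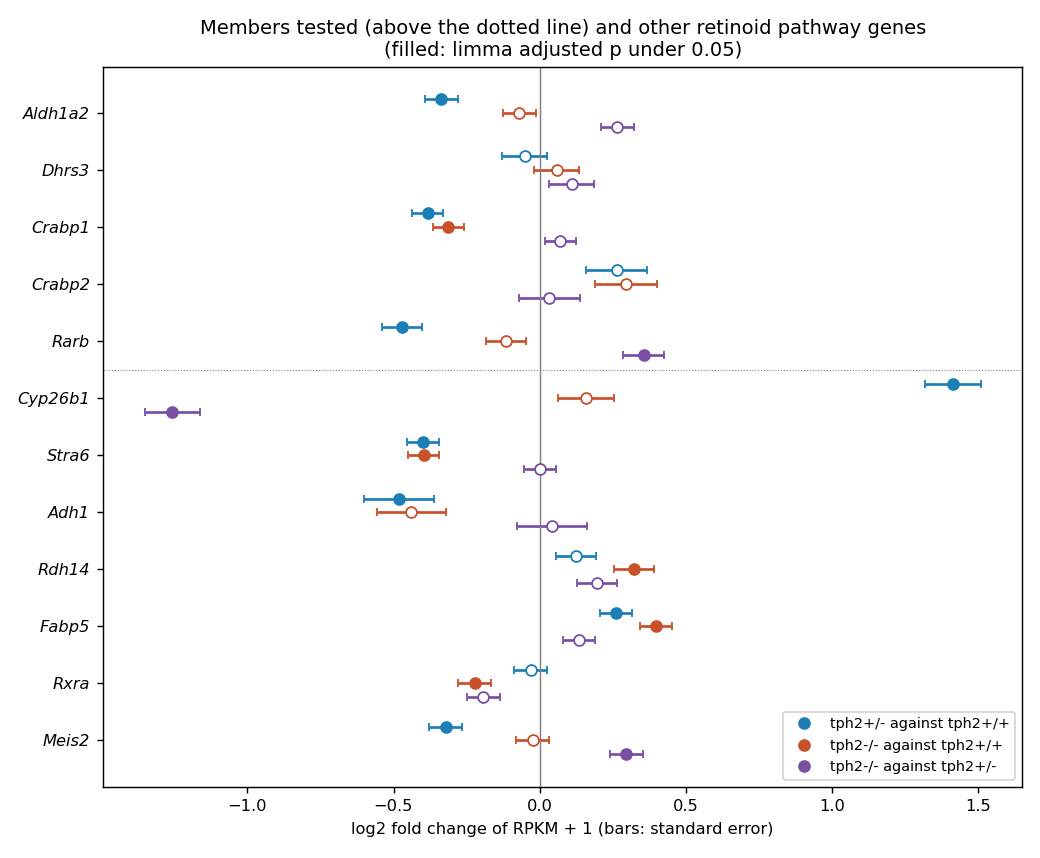
Log2 fold change on the log2(RPKM + 1) scale in each of the 3 comparisons, by colour, for the 5 tested members above the dotted line and for 7 other pathway genes under it, with bars of 1 standard error and filled points where the limma adjusted p was under 0.05. Aldh1a2, Rarb and Crabp1 lie below 0 in tph2+/- against tph2+/+, Crabp2 and Dhrs3 have no filled point, and Cyp26b1 lies at 1.41 in tph2+/- and at -1.26 between the mutants.

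Aldh1a2, which makes most retinoic acid in trunk mesoderm (GENCODE M21 on GRCm38, chr9:71215789-71296243, plus strand), had the highest level of the synthetic enzymes. It gave 93.8% to 96.5% of the summed RPKM of the 3 Aldh1a members in every library. Its values were 36.3 and 35.9 RPKM in tph2+/+, 29.5 and 27.3 in tph2+/-, with 34.1 and 34.6 in tph2-/-. Both tph2+/- libraries were lower than all 4 others, and both tph2-/- libraries fell between the other genotypes. The means were 36.1 ± 0.295 (SD, n = 2) in tph2+/+, 28.4 ± 1.55 in tph2+/- and 34.4 ± 0.309 in tph2-/-. Aldh1a2 fell by 0.34 ± 0.06 in tph2+/- (adjusted p = 0.0084, lower in 2 of 2 libraries), a call lost without either tph2+/+ library (adjusted p = 0.0754 and 0.062). The difference of tph2-/- from tph2+/+ was -0.07 ± 0.06 (adjusted p = 0.446), and that of tph2-/- from tph2+/- was 0.27 ± 0.06 (adjusted p = 0.0611). Between 2526 and 3781 reads lay behind each value.

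Aldh1a3, the enzyme known from the eye, the nose and other epithelia (chr7:66390890-66427517, minus strand), was 1.11 and 1.03 RPKM in tph2+/+, 0.692 and 0.771 in tph2+/-, with 1.13 and 0.975 in tph2-/-. As for Aldh1a2, both tph2+/- libraries were the lowest of the 6, and the tph2+/+ and tph2-/- ranges overlapped. The reads recovered from the RPKM steps were 174 and 157 in tph2+/+, 95 and 107 in tph2+/-, with 149 and 130 in tph2-/-. The ratio of reads per unit of depth was 0.683 in tph2+/- against tph2+/+, with a 95% exact binomial interval of 0.570 to 0.816. That interval, like the others below, covers counting error only. Fitted without the minimum on RPKM, the difference was -0.26 ± 0.08 with an adjusted p of 0.18, so it did not pass.

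Aldh1a1 (chr19:20492715-20643465, plus strand), which is known in this period mainly from the dorsal retina, varied more between replicates than between genotypes. It was 0.610 and 1.17 RPKM in tph2+/+, 0.378 and 1.02 in tph2+/-, with 0.724 and 0.539 in tph2-/-. All 3 genotypes overlapped, and the reads of the tph2+/- replicates were 31 and 85. The adjusted p, fitted without the minimum, was 0.634 in tph2-/- and 0.777 in tph2+/- against tph2+/+. Aldh1a1 has a near copy in the mouse, Aldh1a7, with 52 to 77 reads per library, and how reads shared by both were counted is not given, so its level is uncertain.

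Of the breakdown enzymes, Cyp26a1, which clears retinoic acid in the early embryo and is itself induced by it (chr19:37697798-37701536, plus strand), was lowest in tph2-/-. It was 0.916 and 1.18 RPKM in tph2+/+, 0.863 and 1.02 in tph2+/-, with 0.536 and 0.644 in tph2-/-. Both tph2-/- libraries were lower than all 4 others, and the tph2+/+ and tph2+/- ranges overlapped. The reads were 75 and 94, 62 and 74, and 37 and 45 in the same order. The ratio of reads per unit of depth was 0.565 in tph2-/- against tph2+/+, with a 95% exact binomial interval of 0.429 to 0.740, and 0.628 against tph2+/- (0.471 to 0.832). Without the minimum on RPKM the difference from tph2+/+ was -0.36 ± 0.10, with an adjusted p of 0.0913, so the fall did not pass the test across genes.

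Cyp26c1, the neighbour of Cyp26a1 on chromosome 19 and known from the embryonic head (chr19:37685581-37693398, plus strand), was close to the limit of detection. It had 11 and 10 reads in tph2+/+, 6 and 19 in tph2+/-, with 6 and 5 in tph2-/-. The genotypes' read ratios against tph2+/+ were 0.610 (0.266 to 1.32) in tph2-/- and 1.33 (0.716 to 2.50) in tph2+/-, and no difference from tph2+/+ was detectable at this depth. Between tph2-/- and tph2+/- the ratio was 0.458 (0.203 to 0.965), while the fit without the minimum gave an adjusted p of 0.558.

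The remaining family member, Cyp26b1 (chr6:84571414-84593908, minus strand), is not among the 9 but supplied most of the Cyp26 message. It clears retinoic acid in the limb bud and in the fetal testis. It gave 79.6% and 77.4% of the summed Cyp26 RPKM in tph2+/+, 93.9% and 90.1% in tph2+/-, with 88.3% and 87.6% in tph2-/-. Its level was 4.18 and 4.52 RPKM in tph2+/+, 14.7 and 11.9 in tph2+/-, with 4.80 and 5.14 in tph2-/-, so that both tph2+/- libraries stood above all 4 others. Cyp26b1 rose by 1.41 ± 0.10 in tph2+/- against tph2+/+ (adjusted p = 6.16e-05, ratio 3.06). It was lower in tph2-/- than in tph2+/-, at -1.26 ± 0.10 (adjusted p = 0.000243). The difference of tph2-/- from tph2+/+ was 0.16 ± 0.10 (adjusted p = 0.32).

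Set against each other within a library, Aldh1a2 stood at 8.68 and 7.93 times the RPKM of Cyp26b1 in tph2+/+, at 2.00 and 2.29 times in tph2+/-, and at 7.10 and 6.73 times in tph2-/-. The 3 genotypes did not overlap, and the tph2+/- libraries were far below the rest. This ratio and that of Crabp1 to Crabp2 were formed after the levels were seen and are given with no test. Limb bud markers moved with the same libraries: 6 of the 10 tested limb bud markers were higher in tph2+/- than in tph2+/+ and none lower, and 6 of 10 were lower in tph2-/- than in tph2+/- and none higher. In tph2-/- against tph2+/+, where neither Cyp26b1 nor Aldh1a2 passed, 4 of the 10 were higher and 1 lower. The 11 limb bud markers summed to 60.5 to 64.5 RPKM in tph2+/+, 108 to 146 in tph2+/- and 75.0 to 85.6 in tph2-/-, and none was at 0 in both libraries of a genotype. Much of that sum was Pitx1, which passed in no comparison. It was 30.6 and 33.1 RPKM in tph2+/+, 43.5 and 23.6 in tph2+/-, with 43.2 and 50.7 in tph2-/-. The part of the limb bud markers in the Cyp26b1 and Aldh1a2 values was not tested.

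**Figure D3:**
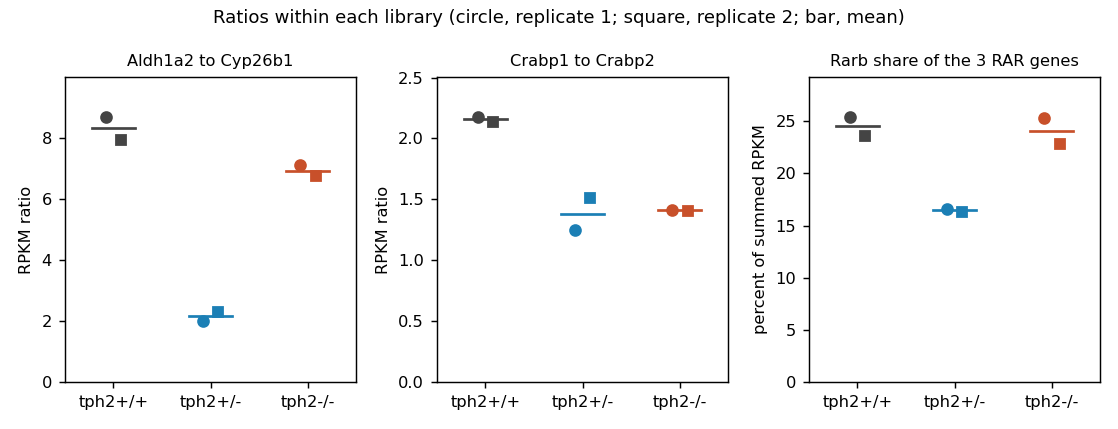
Within-library quantities by genotype, with a circle for replicate 1, a square for replicate 2 and a bar for the mean: the RPKM ratios of Aldh1a2 to Cyp26b1 and of Crabp1 to Crabp2, and Rarb as a percentage of the summed RPKM of Rara, Rarb and Rarg. The first and last are low in tph2+/- alone, at 2.00 and 2.29 and at 16.6% and 16.3%, whereas the ratio of Crabp1 to Crabp2 is 2.14 or more in tph2+/+ and 1.51 or less in both mutant genotypes.

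Dhrs3, which reduces retinal back to retinol and so limits the substrate of the Aldh1a enzymes (chr4:144892827-144928209, plus strand), passed no comparison. It was 10.9 and 11.3 RPKM in tph2+/+, 11.2 and 10.1 in tph2+/-, with 10.9 and 12.3 in tph2-/-. All 3 genotypes overlapped, with 742 to 907 reads per library. The differences were -0.05 ± 0.08 in tph2+/- (adjusted p = 0.782) and 0.06 ± 0.08 in tph2-/- (adjusted p = 0.654) against tph2+/+. The first was 0.02 without tph2+/- replicate 2 and the second -0.03 without tph2-/- replicate 2.

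Crabp1, a cytosolic carrier thought to hold retinoic acid back from the nucleus or hand it to breakdown (chr9:54764748-54773110, plus strand), was the highest member and was lower in both mutant genotypes. It was 179 and 181 RPKM in tph2+/+, 142 and 134 in tph2+/-, with 146 and 144 in tph2-/-. The tph2+/+ libraries stood above all 4 mutant libraries, and both tph2-/- libraries lay above both tph2+/- libraries by a small margin. The means were 180.1 ± 1.30 (SD, n = 2), 138 ± 6.26 and 145 ± 1.16 RPKM. Crabp1 fell by 0.38 ± 0.05 in tph2+/- (adjusted p = 0.00302) and by 0.31 ± 0.05 in tph2-/- (adjusted p = 0.00768), in 2 of 2 libraries each. The mutants did not pass against each other (0.07 ± 0.05, adjusted p = 0.589). In tph2-/- the call was lost without tph2+/+ replicate 1, without tph2+/+ replicate 2 and without tph2-/- replicate 1, with adjusted p between 0.052 and 0.0709, and with Y-linked expression as a term (-0.22, adjusted p = 0.274). In tph2+/- it held when any single library was left out.

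Crabp2, the carrier known to deliver retinoic acid to its nuclear receptors (chr3:87948666-87953376, plus strand), lay on the other side of tph2+/+ in every mutant library. It was 82.3 and 84.7 RPKM in tph2+/+, 114 and 88.3 in tph2+/-, with 103 and 102 in tph2-/-. The tph2+/+ libraries were the lowest of the 6, while the tph2+/- replicates were further apart than any other pair and spanned the tph2-/- values. The differences were 0.30 ± 0.10 in tph2-/- (adjusted p = 0.12) and 0.26 ± 0.10 in tph2+/- (adjusted p = 0.21), so neither passed. Leaving out either tph2+/- library gave the same difference of tph2-/- an adjusted p of 0.00722 (without replicate 1) and 0.00715 (without replicate 2). Crabp1 stood at 2.18 and 2.14 times the RPKM of Crabp2 in tph2+/+, at 1.25 and 1.51 times in tph2+/- and at 1.41 times in both tph2-/- libraries, with no overlap between tph2+/+ and either mutant genotype.

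Rarb encodes a retinoic acid receptor and is the classic target of the signal through the repeat in its promoter (chr14:16430839-16819156, minus strand). Its values were 11.45 and 11.2 RPKM in tph2+/+, 8.41 and 7.41 in tph2+/-, with 10.5 and 10.3 in tph2-/-. The order was that of Aldh1a2: tph2+/+ highest, tph2-/- close under it, tph2+/- lowest, with no overlap between genotypes. The means were 11.3 ± 0.181 (SD, n = 2), 7.91 ± 0.700 and 10.4 ± 0.140 RPKM, from 840 to 1461 reads per library. Rarb fell by 0.47 ± 0.07 in tph2+/- (adjusted p = 0.00412), which held when any single library was left out, with values of -0.55 to -0.39. The difference of tph2-/- from tph2+/+ was -0.11 ± 0.07 (adjusted p = 0.317). Rarb was higher in tph2-/- than in tph2+/- by 0.36 ± 0.07 (adjusted p = 0.0482), a call lost without tph2+/- replicate 2 and without each of the 4 tph2+/+ and tph2-/- libraries, with adjusted p up to 0.281. Exons of Rarb overlap those of Top2b and of the antisense gene Gm48162 on the opposite strand. The kit named in the labels does not mark strand, so reads in the overlap cannot be assigned. Top2b was 38.7 to 40.1 RPKM in the tph2+/+ and tph2+/- libraries and 39.9 to 44.8 RPKM in tph2-/-.

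The other receptors of the family did not share the fall of Rarb in tph2+/-. Rarg was 17.9 and 18.8 RPKM in tph2+/+, 26.0 and 22.1 in tph2+/-, with 16.8 and 19.8 in tph2-/-, with a difference of 0.37 ± 0.09 in tph2+/- (adjusted p = 0.0503), just short of the threshold. Rara was 15.7 and 17.5 RPKM in tph2+/+ and 16.1 and 15.9 in tph2+/-, and these ranges overlapped. In tph2-/- Rara was 14.1 and 14.97 RPKM, under the 4 other libraries, with a difference from tph2+/+ of -0.18 ± 0.07 (adjusted p = 0.129). Rarb made up 25.4% and 23.6% of the summed RPKM of the 3 Rar genes in tph2+/+, 16.6% and 16.3% in tph2+/-, with 25.3% and 22.8% in tph2-/-. The sum itself ran from 41.4 to 50.5 RPKM. The tph2+/+ and tph2+/- ranges of the sum overlapped, and both tph2-/- libraries, at 41.4 and 45.0, lay just under the 4 others. Rxra, a partner of the Rar proteins, was 23.1 and 23.2 RPKM in tph2+/+ and 19.2 and 20.2 in tph2-/-, a fall of 0.22 ± 0.06 (adjusted p = 0.042).

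Around the members, 64 further genes of the pathway were listed by role, of which 63 had a row and 42 were tested. Against tph2+/+, 5 were higher and 5 lower in tph2+/-, and 6 were higher and 3 lower in tph2-/-. Between tph2-/- and tph2+/-, 1 was higher and 2 lower. Of all tested genes, 6.08%, 9.64% and 1.29% passed in these comparisons. The median log2 fold changes of the 42 genes, which include changes in both directions, were 0.03, -0.02 and 0.00, against 0.02, 0.03 and 0.00 over all tested genes.

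Of the 4 tested transcripts of retinol transport and storage, 2 were higher and 2 lower in tph2+/- than in tph2+/+, and 2 were higher and 1 lower in tph2-/-. Stra6, the receptor that takes up retinol from Rbp4, was 22.2 and 22.5 RPKM in tph2+/+, 16.7 in both tph2+/- libraries, and 16.3 and 17.1 in tph2-/-. It fell by 0.40 ± 0.05 in tph2+/- (adjusted p = 0.00276) and by 0.40 ± 0.05 in tph2-/- (adjusted p = 0.00268). The plasma carrier Rbp4 was 3.17 and 2.77 RPKM in tph2+/+, 18.5 and 26.4 in tph2+/-, with 26.9 and 25.0 in tph2-/-. It rose by 2.55 (adjusted p = 0.000562) and 2.76 (adjusted p = 0.000371) in tph2+/- and tph2-/-, and its partner Ttr rose by 2.43 (adjusted p = 9.81e-07) and 2.62 (adjusted p = 9.82e-07). Both are products of hepatoblasts, and all 12 hepatoblast markers, which include both genes, were higher in each mutant genotype. The hepatoblast markers summed to 51.7 to 53.7 RPKM in tph2+/+, 356 to 548 in tph2+/- and 517 to 545 in tph2-/-, and their part in the Rbp4 and Ttr values was not tested.

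Among the 10 tested genes of retinol oxidation and retinal reduction, Rdh14, a retinol dehydrogenase, was higher in tph2-/- (0.32 ± 0.07, adjusted p = 0.0223), and Adh1, a class I alcohol dehydrogenase, was lower in tph2+/- (-0.48 ± 0.12, adjusted p = 0.0485). The difference of Adh1 in tph2-/- from tph2+/+ was similar (-0.44 ± 0.12, adjusted p = 0.0508), just short of the threshold. Rdh10, the dehydrogenase on which most embryonic retinal depends, passed in no comparison, with differences of -0.09 ± 0.08 in tph2+/- (adjusted p = 0.58) and 0.10 ± 0.08 in tph2-/- (adjusted p = 0.417). Of the carriers, Fabp5, which can bring retinoic acid to another nuclear receptor, was 109 and 105 RPKM in tph2+/+, 128 and 129 in tph2+/-, with 146 and 137 in tph2-/-. Fabp5 rose by 0.26 ± 0.05 in tph2+/- (adjusted p = 0.024) and by 0.40 ± 0.05 in tph2-/- (adjusted p = 0.00275). None of the 10 receptor coregulators passed the limma test in any comparison. At an unadjusted p of 0.05, 2 of them passed in tph2+/- and 1 in tph2-/- against tph2+/+. Of all 12869 tested genes, 2598 and 3448 did.

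Of 25 genes known to respond to retinoic acid, 17 were tested. In tph2+/- against tph2+/+, 5 were lower and 1 was higher, beside 1.95% of all tested genes lower and 4.13% higher. Among the lower genes were Rarb, Stra6 and the homeobox partners of Hox proteins Meis2 (-0.32 ± 0.06, adjusted p = 0.0113) and Meis1 (-0.26 ± 0.06, adjusted p = 0.0333). Meis2 was 29.7 and 29.2 RPKM in tph2+/+, 24.2 and 22.6 in tph2+/-, with 29.5 and 28.4 in tph2-/-, and it was higher in tph2-/- than in tph2+/- (0.30 ± 0.06, adjusted p = 0.0445). The higher gene was Tbx5, which starts forelimb growth and was 7.53 and 8.40 RPKM in tph2+/+, 12.7 and 14.7 in tph2+/-, with 2.68 and 3.24 in tph2-/-. It is also among the limb bud markers. In tph2-/- against tph2+/+, 2 responsive genes were higher and 2 lower, beside 5.84% of all tested genes higher and 3.81% lower. The higher genes were Ret, a receptor of the ureteric bud and enteric neurons (0.61 ± 0.08, adjusted p = 0.00274), and Hoxb5 (0.29 ± 0.08, adjusted p = 0.0488), and the lower genes were Stra6 and Tbx5 (-1.18 ± 0.10, adjusted p = 0.00015). Hoxb5 had a similar difference in tph2+/- (0.28 ± 0.08, adjusted p = 0.0744), which did not pass. The calls of Adh1, Rxra, Rdh14, Hoxb5, of Meis2 in both comparisons and of Fabp5 in tph2+/- were each lost under 4 or more alternatives. The call of Meis1 was lost with no minimum on RPKM at pseudocounts of 1 and 0.1 (adjusted p = 0.0712 and 0.056). Meis1 was not followed through the other alternatives. The calls of Stra6, Fabp5 and Ret in tph2-/- were lost with Y-linked expression as a term (adjusted p = 0.097, 0.104 and 0.0598).

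**Figure D4:**
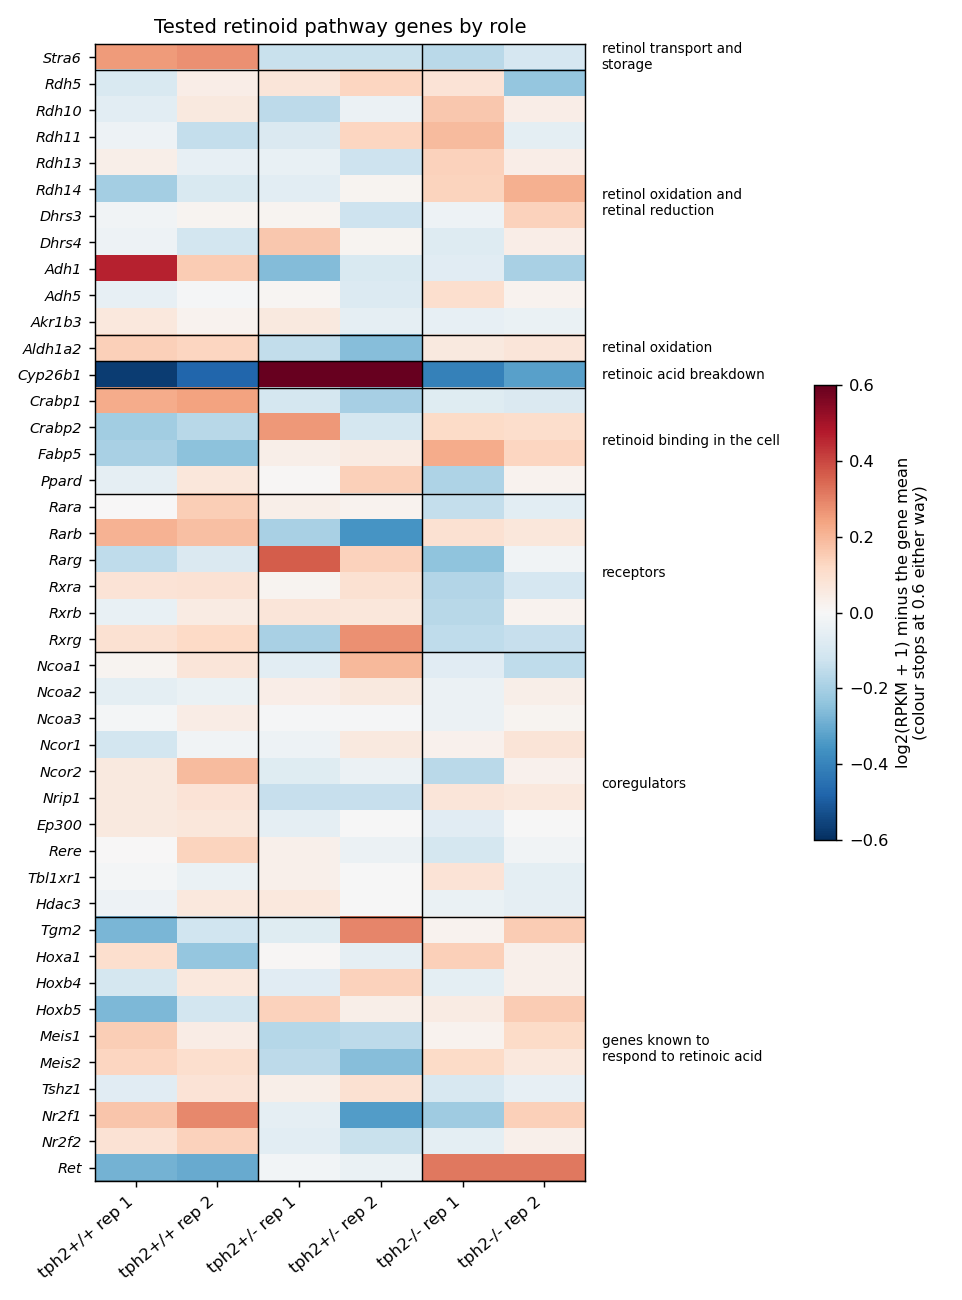
Log2(RPKM + 1) of tested pathway genes minus each gene's mean over the 6 libraries, with genes in rows by role and libraries in columns by genotype, red above and blue below the gene's mean. The colour stops at 0.6 in either direction, which Cyp26b1 passes in tph2+/-, and Rbp4, Ttr and Tbx5 are left out because their differences lie far beyond it. Aldh1a2, Rarb, Meis1 and Meis2 are blue in both tph2+/- libraries, and Stra6 and Crabp1 are red in tph2+/+ alone.

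The other 8 responsive genes lay under the minimum for testing. Cyp26a1 is described above, Cdx4 was listed at 0 in all 6 libraries, the ranges of Cdx1 and Stra8 overlapped between all genotypes, and Fgf8 was above tph2+/+ in both tph2+/- libraries without passing (adjusted p = 0.148, fitted without the minimum). The remaining genes, Hoxb1, Rarres1 and Pdx1, are given with their reads and were singled out after their values were seen. Hoxb1, an anterior Hox gene with its own retinoic acid repeats, had 13 and 19 reads in tph2+/+, 54 and 36 in tph2+/-, with 90 and 77 in tph2-/-. The ratio of reads per unit of depth against tph2+/+ was 3.15 (95% exact binomial interval 2.08 to 4.87) in tph2+/- and 6.08 (4.15 to 9.17) in tph2-/-. Fitted without the minimum, Hoxb1 passed in tph2-/- (adjusted p = 0.00744) and not in tph2+/- (adjusted p = 0.0962). Rarres1, named for its induction by retinoids, had 14 and 8 reads, 69 and 67, and 49 and 32 in the same order, which gave ratios of 6.92 (4.39 to 11.4) in tph2+/- and 4.29 (2.65 to 7.22) in tph2-/-, with adjusted p of 0.00968 and 0.0329 in the fit without the minimum. Pdx1, the pancreas and duodenum factor, had no read in either tph2+/+ library, 36 and 23 in tph2+/-, with 39 and 27 in tph2-/-, and adjusted p of 0.0264 and 0.0127 in that fit. Over all genes in that fit, 491 were higher and 155 lower in tph2+/-, and 802 were higher and 276 lower in tph2-/-. Both libraries of each mutant genotype stood above both tph2+/+ libraries for these 3 genes. Since the genes were picked with their values known, that is a description and no test. Each level was far below those of the tested members.

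Over all tested genes, the profiles most like those of the 3 members that passed were found by Euclidean distance between mean-centred log2(RPKM + 1) values across the 6 libraries, among 12051 named genes. Nearest to Aldh1a2 were Meis2 (distance 0.0685), Mest (0.0987) and Usp29 (0.0991), and Rarb ranked 25th. Nearest to Rarb were Shisa3 (0.0850), Meis3 (0.0983) and Hapln1 (0.105), and Aldh1a2 ranked 11th. Nearest to Crabp1 were Cux2 (0.0539), Crispld2 (0.0755) and Zfp462 (0.0806), with Aldh1a2 ranked 393rd and Rarb 773rd, while Crabp1 itself ranked 401st from Aldh1a2 and 120th from Rarb. With 6 libraries that share depth, tissue makeup and sex, these distances are a description.

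Markers of other trunk tissues also moved with the genotypes. Of the 7 tested mesonephros and nephric duct markers, 4 were lower in tph2+/-, and in tph2-/- 3 were lower and 1 was higher. The 10 markers of that list summed to 35.2 to 36.9 RPKM in tph2+/+, 26.2 to 28.1 in tph2+/- and 30.2 to 32.9 in tph2-/-. Aldh1a2, Rarb and Crabp1 had the same order. Much of that sum was Emx2, with means of 19.4, 13.2 and 15.3 RPKM, while Pax2, Lhx1 and Ret of the list were highest in tph2-/-. Endothelial markers summed in the same order, to 76.8 to 78.0, 67.5 to 69.5 and 70.8 to 71.25 RPKM. Somite and muscle markers were lower in both mutants, 6 of 8 in tph2+/- and 7 of 8 in tph2-/-, and summed to 284 to 293, 187 to 217 and 197 to 204 RPKM. The sums of the mutants overlapped, and both lay under tph2+/+, as both mutants did for Crabp1. Gonad and coelomic epithelium markers summed to 123 to 126, 115 to 116 and 104 to 112 RPKM, with 3 of 8 tested lower and 2 higher in tph2+/- and 4 lower and 1 higher in tph2-/-. Markers of neural tissue, a known site of Crabp1 expression, were higher in tph2-/-. All 6 tested passed there and 3 in tph2+/-, and the 12 markers summed to 18.8 to 19.2, 22.7 to 26.2 and 70.0 to 74.6 RPKM. The 5 motor neuron markers summed to 3.64 to 4.37, 6.66 to 6.81 and 11.8 to 12.05 RPKM. Sympathoadrenal and neural crest markers summed to 61.1 to 61.5, 66.9 to 68.8 and 58.9 to 63.65 RPKM. Of their 8 tested, 1 was higher and 2 lower in tph2+/-, and 2 were higher and 3 lower in tph2-/-. The higher gene in tph2+/- was Hand2, and the lower genes there were Dbh and Phox2a. Hand2 made up much of the sum, with means of 24.15, 37.1 and 25.9 RPKM in tph2+/+, tph2+/- and tph2-/-. A single neural marker was at 0 in both tph2+/- libraries, and no other marker of these lists was at 0 in both libraries of a genotype. Of blood markers, 5 of 6 tested were higher in each mutant genotype, as were 4 of 7 stomach and gut mesenchyme markers, of which 1 was lower in tph2+/-. None of the 5 endothelial markers passed the limma test, with 3 in tph2+/- and 1 in tph2-/- under an unadjusted p of 0.05. Over all 12869 tested genes, 2598 and 3448 were under that value. The part of these tissues in the values of the members was not tested.

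**Figure D5:**
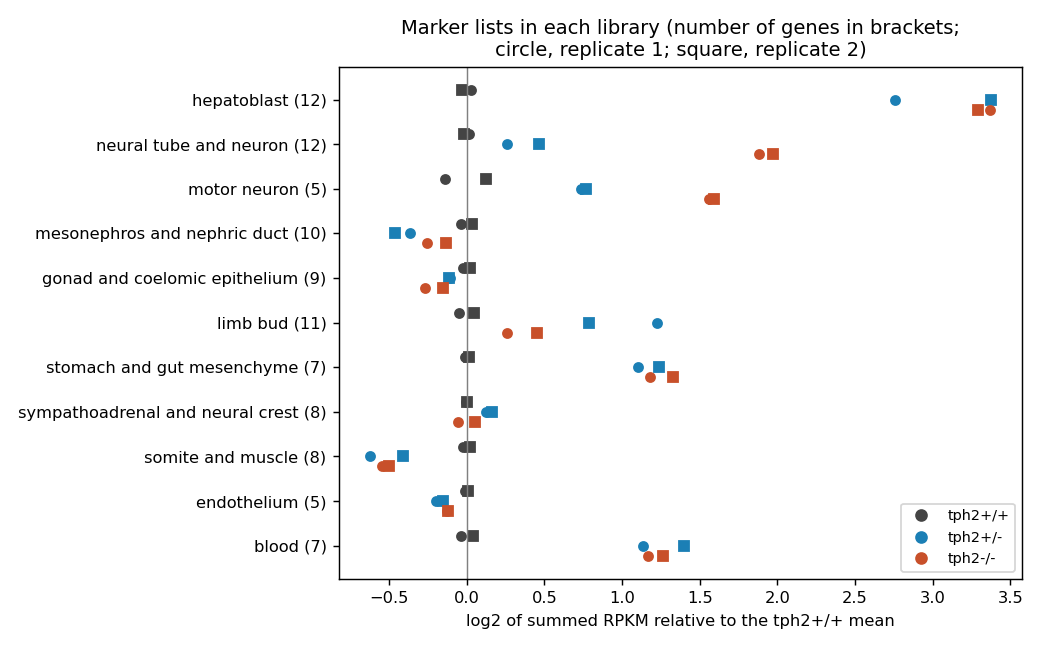
Summed RPKM of each marker list in the 6 libraries, as log2 relative to the tph2+/+ mean, coloured by genotype, with a circle for replicate 1 and a square for replicate 2. Hepatoblast markers are far to the right in both mutant genotypes, limb bud markers are highest in tph2+/-, neural markers in tph2-/-, and the mesonephros and somite lists lie left of 0 in all 4 mutant libraries.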

How the data were processed

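The authors deposited 1 table of RPKM values per gene, which per the submitters' processing notes came from TopHat2 2.0.9, HTSeq 0.5.3p9 and the GRCm38 build. Libraries were made from about 1 µg of total RNA using the TruSeq RNA preparation kit (not strand-specific) and read as pairs of 150 bases, per the labels' protocols. Of 56826 rows, 33353 were named by clone and 27 were dates in place of symbols, and both were left out. Fold changes were fitted with limma 3.58.1 in R 4.3.3 (trend and robust options) on log2(RPKM + 1) for genes whose mean reached 1 RPKM, with all 6 libraries in 3 groups and 3 residual degrees of freedom. P-values were Benjamini-Hochberg adjusted over all genes, with 0.05 as the threshold, and the steps were tested on simulated data. Since the unit was not counts, no count test was used. Whole reads and depths were recovered from the steps between low RPKM values and GENCODE lengths of single-transcript genes, and are estimates. Read ratios carry 95% exact (Clopper-Pearson) intervals, which cover counting error only. All 9 members were named, with up to 4 passing genes per pathway role and comparison by size of change, and the 3 nearest profiles per passing member. Meis1, the receptors Rara and Rarg, Rdh10 and the low genes were named outside that rule, after their values were seen. The members and lists were chosen with earlier results of these data known. Bco1 was matched as Bcmo1, and Rbpr2 had no matching row. A gene counted in the lists is not reported here by name. Samples with the same replicate number deviated together only weakly (r of 0.170 at most) and no label pairs them, so numbers were not used as pairs. Alternatives were another pseudocount of 0.1, no minimum, quantile normalization, no trend or robust option, only the 2 groups compared, a replicate block, Y-linked expression as a term, and each library left out.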

Additional observations from a re-analysis of the deposited data

How the results depend on the processing

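In tph2+/- against tph2+/+, Rarb and Crabp1 kept their fall and their call under every alternative run, and Cyp26b1 its rise. Aldh1a2 kept its direction there, at -0.39 to -0.28 over the libraries left out, and lost its call only without either tph2+/+ library. Rarb in tph2-/- against tph2+/- was 0.28 to 0.44 with libraries left out, and it did not pass with no minimum (0.36), with no minimum and a pseudocount of 0.1 (0.39), with no trend or robust option (0.36) or with only the 2 groups compared (0.36), where adjusted p was 0.0707 to 0.0924. Aldh1a2 in that comparison was 0.21 to 0.32 and passed with quantile normalization (0.27, adjusted p = 0.0462) and without tph2+/- replicate 1 (adjusted p = 0.0455). Crabp1 in tph2-/- against tph2+/+ was -0.32 to -0.31 with libraries left out.

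With Y-linked expression as a term, whose slope rests on the 2 tph2+/- libraries, values in tph2-/- against tph2+/+ were 0.043 for Aldh1a2 and 0.05 for Rarb, both opposite in sign to the main values and neither past the threshold, -0.22 for Crabp1 and 0.67 for Crabp2 (adjusted p = 0.00766). In tph2+/- against tph2+/+ they were 0.024 for Dhrs3, opposite in sign, and 0.45 for Crabp2 (adjusted p = 0.00601). Crabp2 in tph2-/- against tph2+/+ also passed with only the 2 groups compared (0.30, adjusted p = 0.00719), and was 0.28 to 0.32 with libraries left out. In tph2+/- it was 0.079 to 0.45 with libraries left out, passing without tph2+/- replicate 2 (adjusted p = 0.00463), and between the mutants -0.15 to 0.22. Dhrs3 ran from -0.026 to 0.14 (tph2-/-) and from -0.12 to 0.018 (tph2+/-) with libraries left out. The cause of these changes was not tested.

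Members passing in tph2-/- against tph2+/+ numbered 1, or 2 with only the 2 groups compared, and 0 to 2 with libraries left out (0 in limma without either tph2+/+ library or tph2-/- replicate 1, with 1 at an unadjusted p of 0.05). In tph2+/- they numbered 3, and 2 to 4 with libraries left out. Between the mutants they numbered 1, or 2 with quantile normalization, 0 with no minimum at either pseudocount (4 at an unadjusted p of 0.05), 0 with no trend or robust option and 0 with only the 2 groups compared (2 at an unadjusted p of 0.05), and 0 to 2 with libraries left out. Pathway genes passing numbered 10 in tph2-/- (5 with the Y-linked term, 6 to 13 with libraries left out), 13 in tph2+/- (7 to 12) and 4 between the mutants (2 with no minimum at either pseudocount, 2 with only the 2 groups compared, and 2 to 5). Over all genes, 1241 passed in tph2-/- (400 with the Y-linked term, 383 to 1530 with libraries left out), 782 in tph2+/- (325 to 805) and 166 between the mutants (264 with the Y-linked term, 57 to 288). Quantile normalization moved the genes higher and lower in tph2-/- from 751 and 490 to 548 and 667, and in tph2+/- from 531 and 251 to 408 and 370. At an unadjusted limma p of 0.05 in the main fit, 3448 of 12869 genes passed in tph2-/-, 2598 in tph2+/- and 1691 between the mutants. Between the mutants, 2390 genes did so with no minimum, 2355 with a pseudocount of 0.1 as well, and 1382 with only the 2 groups compared.

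Same-numbered libraries correlated in their deviations from the genotype means at r = 0.170, 0.0330 and 0.0727, and the numbers were not used as pairs. With 2 libraries per genotype, these values cannot tell whether same-numbered libraries share a litter. With the replicate number as a block, 1649, 908 and 220 genes passed in tph2-/- and tph2+/- against tph2+/+ and between the mutants, and 1, 3 and 1 members. Where a library was left out, the remaining one of its genotype was assumed to vary like the other groups. With 3 residual degrees of freedom and fewer than 200 reads behind Aldh1a1, Aldh1a3, Cyp26a1 and Cyp26c1 in each library, small changes of these 4 genes could not be detected.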
